A study of Mus musculus with 4 samples.

Results

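PRDM proteins are transcription factors that pair a PR domain, a relative of the SET domain of histone methyltransferases, with zinc fingers in nearly every member. Most act at promoters and enhancers by recruiting enzymes that modify histones, and many fix a cell's identity as it matures. In fat the best known member is PRDM16, which holds adipocytes in a brown or beige, heat-producing state. BLIMP1, the product of Prdm1, is a repressor best known for driving B cells to become plasma cells, and it also acts in T cells and macrophages. The genes described here are Prdm1, Prdm2, Prdm4, Prdm6, Prdm8, Prdm10, Prdm15 and Prdm16. They were chosen by symbol, as 8 of the 55487 genes in the table, and all 8 were found on a single row each.

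The study sequenced RNA from adipocytes of perigonadal white fat, taken from male mice on a standard diet. Libraries came from animals labelled CKO and from their WT littermates, the controls, with 2 libraries in each group. The study's title names BLIMP1 and macrophages. The labels do not spell out CKO, and they do not give the deleted gene, the driver of a recombinase, the animals' age, or whether the libraries of a group came from separate animals. The p-values therefore measure only the spread between these libraries, which may be technical. Each library held between 24152081 and 26742547 reads counted on genes, and 3 reads, the limit that a count of 0 allows, come to at most 0.124 counts on the CPM scale. Values are given as reads, or as reads scaled to a common depth by a size factor of 0.951 to 1.10 per library (scaled reads). Intervals on counts cover counting error only.

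The libraries differed in the RNA of cell type markers as well as in their labels. The 10 adipocyte markers summed to 1296360 and 815682 scaled reads in the CKO libraries and to 717756 and 218757 in the WT libraries, mostly from Cfd and Fabp4. By mean log2 level the same 10 genes stood at 15.65 and 14.95 in CKO and at 15.10 and 13.07 in WT, so the groups overlapped. Of the 10, 9 had a positive log2 change from WT to CKO and 1, Lep, a negative change (-1.23). The 10 macrophage markers summed to 37561 and 83255 in CKO and to 170376 and 496595 in WT, and none of them was at 0 in any library. WT replicate 2 was the library in which macrophage markers outweighed adipocyte markers, and it stood apart on the first principal component, which took 77.7% of the variance. Adiponectin (Adipoq) had 71437 and 43436 reads in CKO and 44425 and 7561 in WT, while the macrophage gene Adgre1 had 1384 and 3106 in CKO and 8071 and 31880 in WT. In such bulk RNA, fewer cells of a type and less RNA per cell cannot be told apart.

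Promoter sequences from RefSeq (GRCm38.p6, from 250 bases before to 50 bases after a start) were found for 6 of the 8 genes, in 9 windows. The 3 shown belong to the members whose levels the results turn on: Prdm1 and Prdm16, which varied most between libraries, and Prdm4, which varied least. They lie at chr10:44458699-44458998, chr4:154636824-154637123 and chr10:85916937-85917236, all on the minus strand, and are written 5′ to 3′ with each CG pair in capitals.
Prdm1: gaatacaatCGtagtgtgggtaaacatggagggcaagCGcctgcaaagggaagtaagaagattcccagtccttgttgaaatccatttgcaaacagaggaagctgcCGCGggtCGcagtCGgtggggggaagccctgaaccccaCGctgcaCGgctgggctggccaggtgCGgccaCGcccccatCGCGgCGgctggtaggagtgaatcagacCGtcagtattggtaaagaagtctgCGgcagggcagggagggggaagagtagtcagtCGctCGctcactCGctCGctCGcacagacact
Prdm16: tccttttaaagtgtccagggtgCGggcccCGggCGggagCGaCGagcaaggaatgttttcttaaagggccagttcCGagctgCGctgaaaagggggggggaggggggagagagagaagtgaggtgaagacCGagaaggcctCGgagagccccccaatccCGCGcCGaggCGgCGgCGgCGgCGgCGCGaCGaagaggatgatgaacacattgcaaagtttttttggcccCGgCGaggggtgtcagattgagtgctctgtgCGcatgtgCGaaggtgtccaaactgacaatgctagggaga
Prdm4: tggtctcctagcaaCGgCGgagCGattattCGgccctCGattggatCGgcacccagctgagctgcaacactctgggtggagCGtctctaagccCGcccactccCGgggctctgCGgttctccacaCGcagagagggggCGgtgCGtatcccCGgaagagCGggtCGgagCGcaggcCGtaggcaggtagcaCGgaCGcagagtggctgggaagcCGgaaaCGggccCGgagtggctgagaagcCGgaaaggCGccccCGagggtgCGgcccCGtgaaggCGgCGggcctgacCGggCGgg

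The 3 windows are rich in CG pairs, with 20 in that of Prdm1, 24 in that of Prdm16 and 32 in that of Prdm4. The ratio of observed to expected CG pairs was 0.767, 0.939 and 0.896 in that order, against a median of 0.384 over 32851 promoter windows of the same length. All 9 windows of the members lay above that median, from 0.424 in the second window of Prdm10 to 0.962 in the second of Prdm4. The Prdm1 window begins inside the gene: the GENCODE model has another transcript that starts 69753 bases farther upstream.

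Because BLIMP1 binds DNA around a GAAAG core, the windows were searched for GAAAG and for the longer form AGTGAAAG on both strands, of which the second contains the first. GAAAG was in 5 of the 9 members' windows and in 57.3% of all windows. The Prdm1 and Prdm16 windows shown had no GAAAG, and the Prdm4 window had 1. AGTGAAAG was in 0 of the 9 and in 1.32% of all windows. TATAAA, the TATA box, was in 1 of the 9, the second window of Prdm10, and in 13.6% of all windows. These are letter matches and no evidence of binding.

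Of the 8 PRDM genes, 6 were read often enough to be tested (mean log2 value over the 4 libraries at 3 or above), and none passed at an adjusted p under 0.05 in limma, adjusted over 16871 genes. Over all genes tested that share was also 0%. At an unadjusted p under 0.05, 1 member was lower in CKO, Prdm1, against 7.26% of all genes tested, and 0 were higher, against 3.35%. Both CKO libraries stood above both WT libraries for 2 members (23.9% of all genes tested) and below for 2 (26.8%). The median log2 change from WT to CKO was 0.16 over the 6 members and 0.015 over all genes tested. Neither count of members without overlap was a result about the family, since such separation was common among all genes.

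**Figure D1:**
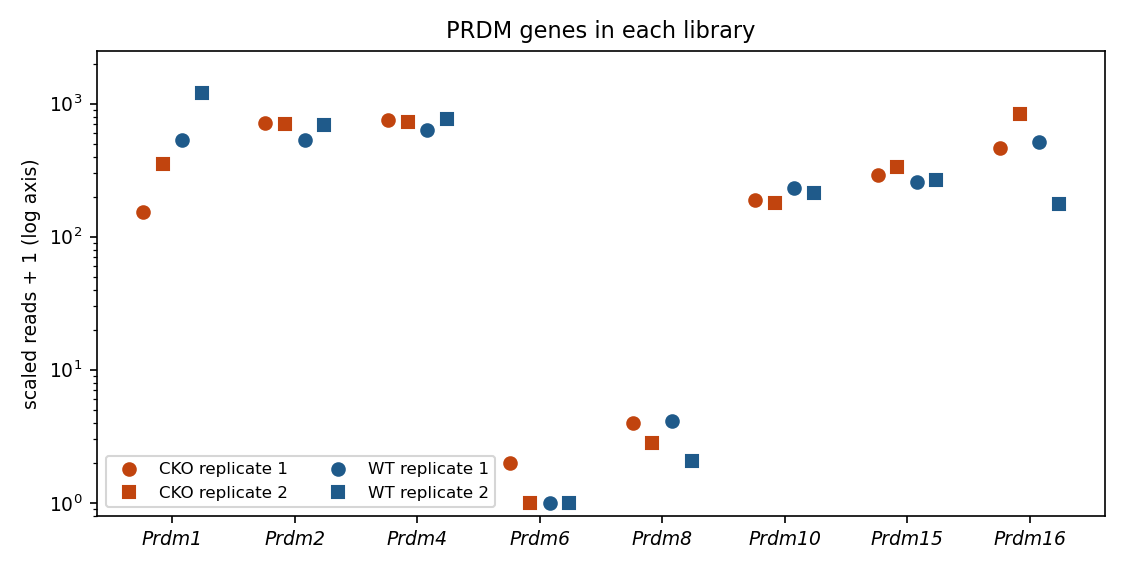
Scaled reads plus 1 (log axis) of the 8 PRDM genes, 1 point per library, with CKO in orange and WT in blue. Prdm1 climbs from CKO to WT and Prdm16 is lowest in WT replicate 2, while Prdm2, Prdm4, Prdm10 and Prdm15 lie nearly level and Prdm6 and Prdm8 sit at the floor.

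Prdm1, on the minus strand at chr10:44437177-44528501, has 4 annotated transcripts, and no other annotated gene overlaps it. It was read 152 and 386 times in the CKO libraries and 514 and 1135 times in the WT libraries. Both CKO libraries were below both WT libraries, though CKO replicate 2 and WT replicate 1 were close, and each group spanned more than the gap between those neighbours. The scaled mean was 251 ± 140 for the CKO group, against 864 ± 466 for WT (SD, n = 2 each). The log2 change was -1.79 with an SE of 0.59 and a 95% interval from -3.30 to -0.27, and the adjusted p was 0.459 in limma, the smallest that any gene had, and shared with many. Without CKO replicate 1 the change was -1.20, and without WT replicate 2 it was -1.22. Prdm1 reads were thus present in both CKO libraries, and gene totals do not show which exons they came from.

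Per kilobase of exon, Prdm1 stood at 27.3 and 62.7 scaled reads in CKO and at 95.7 and 213.9 in WT. Its highest library was 7.84 times its lowest, the widest range of the 6 members read often enough to test. Its spread over the 4 libraries exceeded that of 90.2% of genes tested.

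Relative to its own family, Prdm1 gave 5.94% of the reads of the 8 members in CKO replicate 1 (152 of 2557 reads, exact binomial 95% interval 5.06% to 6.93%) and 11.2% in CKO replicate 2 (10.2% to 12.3%). It gave 19.7% in WT replicate 1 (18.2% to 21.3%) and 36.1% in WT replicate 2 (34.5% to 37.9%). No 2 of these intervals overlapped, so the libraries differed from each other beyond counting error, within a group as well as between groups. Such intervals do not measure a difference between groups of 2 libraries. The share also depends on the other members: Prdm16 gave its lowest share, 5.29%, in WT replicate 2, where Prdm1 gave its highest. By level per kilobase, Prdm1 came after Prdm4, Prdm2 and Prdm16 in both CKO libraries, after Prdm4 alone in WT replicate 1, and ahead of all members in WT replicate 2.

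**Figure D2:**
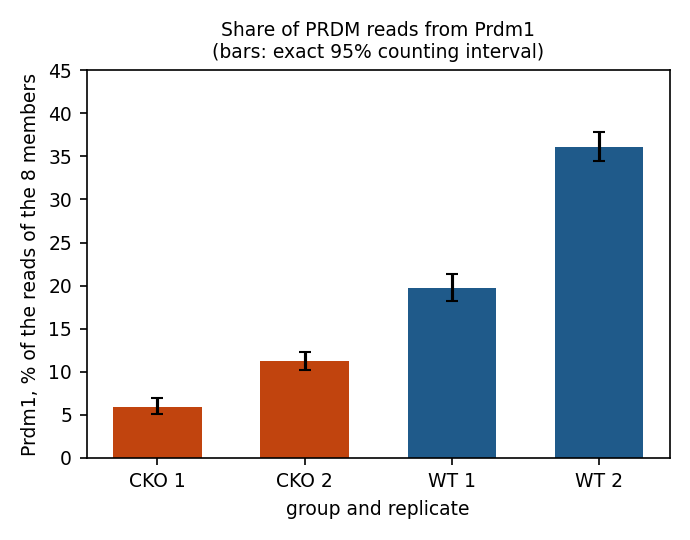
Prdm1 reads as a percentage of the reads of the 8 PRDM genes, 1 bar per library with its exact 95% counting interval. The share runs from 5.94% to 36.1%, with both WT libraries above both CKO libraries.

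The order of the libraries by Prdm1, CKO replicate 1, CKO replicate 2, WT replicate 1, WT replicate 2, was also their order by summed macrophage markers. The first principal component, with 77.7% of the variance, had the same order (-84.4, -38.0, 4.18 and 118). Such an order was thus not particular to Prdm1 or to these markers. All 10 macrophage markers were lower in CKO on average, 9 of them without overlap (26.8% of all genes tested) and 8 at an unadjusted p under 0.05 (7.26%), with a median log2 change of -2.37, but none passed the adjusted threshold in limma. Set against the mean of these 10 markers, the log2 ratio of Prdm1 was -3.43 and -3.03 in CKO and -3.44 and -3.95 in WT. That is a difference of 0.47 toward CKO, with a pooled SD of 0.33, where the level of Prdm1 itself had differed by -1.79. Relative to this mean, then, Prdm1 was not lower in the CKO libraries.

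The ratio depended on the marker. It was higher in CKO on average for 9 of the 10 markers, by 0.065 against the complement gene C1qa and by 1.43 against the lysosomal gene Cd68. For 5 of them the groups did not overlap. C1qb was among these, with CKO replicate 1 at -4.871 and WT replicate 1 at -4.879. No share over all genes was computed for such ratios, and separation of levels was common (23.9% of all genes tested above, 26.8% below). The count is thus no result about Prdm1. Against Mertk, a receptor for dead cells whose own log2 change was -0.03, it was lower in CKO by 1.76. Against Ptprc (CD45), which all white blood cells carry, the log2 ratio was -2.11 and -2.44 in CKO and -2.88 and -3.21 in WT. Against the endothelial gene Pecam1 and against Adipoq it was lower in CKO without overlap, with differences (CKO minus WT) of -2.82 and -3.26. Among markers of other BLIMP1-expressing cells, the plasma cell gene Mzb1 had 1 read in CKO replicate 2 and 0 elsewhere, and the T cell gene Cd8a had 0 in all 4 libraries. Sdc1, which other cell types also carry, had 422 and 1562 reads in CKO and 2974 and 8872 in WT. Jchain, the joining chain of antibodies, had 50 and 130 in CKO and 76 and 32 in WT, and Cd79b, part of the B cell receptor, had 36 and 70 in CKO and 46 and 164 in WT. The 8 B and plasma cell markers summed to 605 and 1691 scaled reads in CKO and 3322 and 9571 in WT, mostly from Sdc1 and in the library order of Prdm1, while the 6 T cell markers summed to 63.1 and 24.5 in CKO and 41.5 and 32.6 in WT. The part of macrophage, B or plasma cell content in the Prdm1 difference was not tested.

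**Figure D3:**
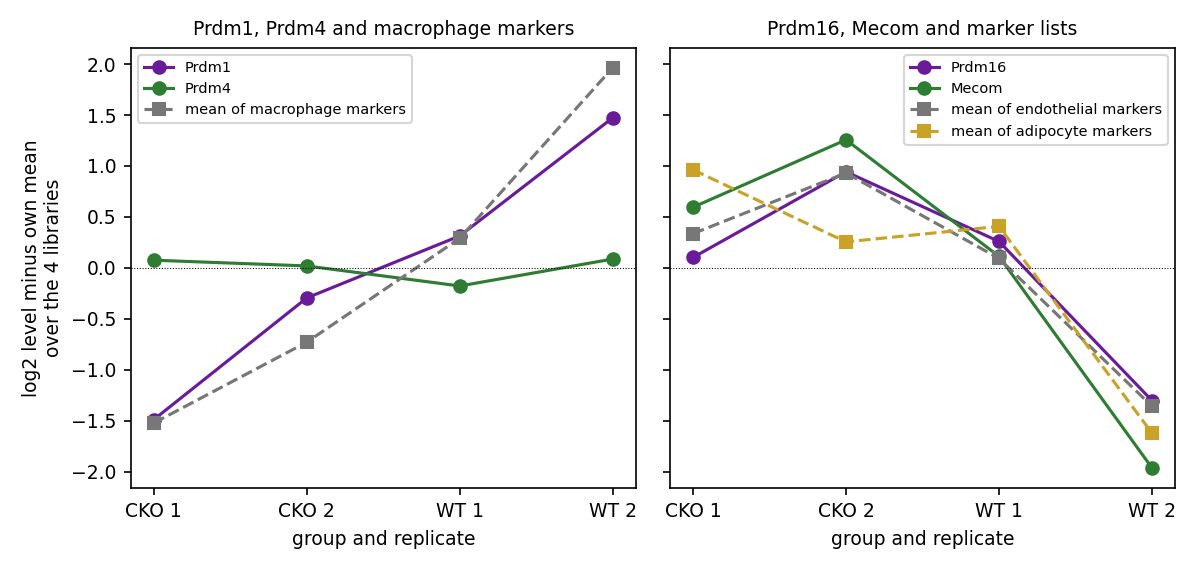
Log2 levels less each gene's or list's own mean over the 4 libraries, for Prdm1, Prdm4 and the macrophage markers (left) and for Prdm16, Mecom and the endothelial and adipocyte markers (right); lines only join values of the same gene. Prdm1 climbs with the macrophage markers while Prdm4 stays near 0, and Prdm16 and Mecom peak in CKO replicate 2 and drop in WT replicate 2.

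Prdm16, on the minus strand at chr4:154316125-154636873, has 13 annotated transcripts, and its exons share 109 bases with genes on the opposite strand. It was read 463 and 918 times in CKO and 498 and 166 times in WT. WT replicate 2 was low and CKO replicate 2 high, and the groups overlapped, since WT replicate 1 exceeded CKO replicate 1. Its scaled mean came to 648 ± 260 for CKO, against 346 ± 242 for WT (SD, n = 2 each). The log2 change was 1.04 (SE 0.62, 95% interval -0.55 to 2.64, adjusted p = 0.50 in limma), and without WT replicate 2 it was 0.25. Its level per kilobase ranged 4.76-fold, from 18.7 in WT replicate 2 to 89.2 in CKO replicate 2, and its spread exceeded that of 81.1% of genes tested.

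Prdm16 did not follow the adipocyte markers library by library. Those were highest in CKO replicate 1, whereas Prdm16 was highest in CKO replicate 2, the library in which the 6 endothelial markers were also highest. These endothelial markers summed to 50323 and 75322 scaled reads in CKO and 41206 and 14946 in WT, all 6 without overlap (23.9% of all genes tested), with a median log2 change of 1.22. The 6 smooth muscle and pericyte markers summed to 11270 and 16982 in CKO and 14075 and 5541 in WT. That is the order of the libraries by Prdm16, whereas the endothelial sums put CKO replicate 1 above WT replicate 1. The higher smooth muscle sum in WT replicate 1 than in CKO replicate 1 came mostly from Acta2 (5739 against 871 scaled reads). Tagln and Cnn1, at low levels, were also higher in WT replicate 1. Rgs5 (5547 against 7404), Pdgfrb and Myh11 were lower there, as the endothelial sums were. The adipocyte, endothelial and smooth muscle sums and Prdm16 were all lowest in WT replicate 2. The part of cell content in the Prdm16 values was not tested.

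The other 4 tested members were nearly level across the libraries. Prdm4, whose protein works with the arginine methyltransferase PRMT5, lies at chr10:85891966-85917142 and was read 755 and 803 times in CKO and 611 and 725 times in WT. The groups overlapped, at scaled means of 742 ± 20.5 for CKO and 698 ± 90.4 for WT (SD, n = 2 each). The log2 change was 0.09, with a 95% interval from -0.53 to 0.72, and the spread of Prdm4 was below that of all but 7.10% of genes tested.

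Prdm2 (chr4:143107391-143212995), which encodes the tumour suppressor RIZ1, was read 708 and 772 times in CKO and 509 and 659 times in WT. Both CKO libraries were above both WT libraries after scaling, but the nearest pair were almost equal. The log2 change was 0.22 with an interval from -0.46 to 0.89, and 0.017 without WT replicate 1.

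Prdm15 (chr16:97791467-97851850), a regulator of pluripotency in embryonic stem cells, was read 289 and 369 times in CKO and 247 and 254 times in WT. Its log2 change was 0.25, from -0.49 to 0.98, with CKO above WT. Prdm10 (chr9:31280538-31381723), which is needed in the early embryo, was read 186 and 197 times in CKO and 222 and 200 times in WT. Its log2 change was -0.27, from -1.06 to 0.52, with CKO below WT after scaling. The adjusted p-values of these 4 genes lay between 0.695 and 0.872 in limma, and each interval spans 0 while leaving room for changes of about the size of its bounds.

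**Figure D4:**
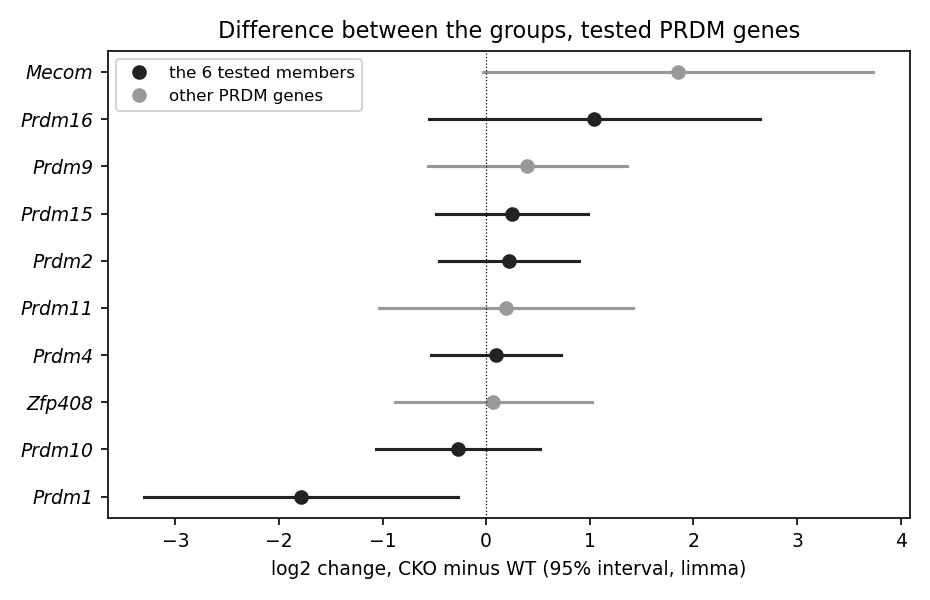
Log2 change from WT to CKO with its 95% interval (limma) for the tested PRDM genes, the 6 members in black and 4 relatives in grey. The interval of Prdm1 (-3.30 to -0.27) lies below 0 and every other interval spans 0; no gene passed after adjustment.

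Ordered by mean level per kilobase, Prdm4 stood at 146.5, Prdm1 at 99.9, Prdm2 at 88.6, Prdm16 at 53.3, Prdm15 at 25.3 and Prdm10 at 21.8 scaled reads. Prdm4 (129.1 to 155.1) was above Prdm2 (71.2 to 95.6) in every library, and Prdm2 was above Prdm15 (22.6 to 29.5) in every library. The place of Prdm1 was not fixed, because its range over the libraries covered those of Prdm2 and Prdm4. Prdm16 overlapped Prdm2, Prdm15 and Prdm10 in range, and the ranges of Prdm15 and Prdm10 overlapped each other.

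Prdm6 and Prdm8 were at the floor in both groups. Prdm6, known from smooth muscle precursors, had 1 read in CKO replicate 1 and 0 in the other 3 libraries, although smooth muscle and pericyte markers were read in all 4. Prdm8, known from neurons and the retina, had 3 and 2 reads in CKO and 3 and 1 in WT, and its exons share 1411 bases with the opposite-strand gene A730035I17Rik, so that even these reads are uncertain in origin where strand is not known. Neither was tested, and no fold is given.

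Among the other PRDM genes, Mecom had the most distinct pattern. Mecom, which encodes the blood stem cell factor EVI1 and is the nearest relative of Prdm16, was read 1217 and 2130 times in CKO and 840 and 196 times in WT. Both CKO libraries were above both WT libraries, with scaled means of 1574 ± 502 and 539 ± 471 (SD, n = 2 each). The log2 change was 1.85 (SE 0.73, 95% interval -0.03 to 3.74, adjusted p = 0.459 in limma). Like Prdm16, Mecom was highest in CKO replicate 2 and lowest in WT replicate 2, and its order over the libraries was that of the endothelial marker sum.

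Of 7 other family genes, 4 were tested, and all 4 had a positive change (as had 8627 of the 16871 genes tested), 2 of them (Mecom and Prdm9) without overlap (23.9% of all genes tested), with a median of 0.29, but none passed the adjusted threshold and none an unadjusted p under 0.05. Prdm9, which places recombination hot spots in meiosis, was read 159 and 166 times in CKO and 134 and 94 times in WT, a log2 change of 0.40 (SE 0.37). Prdm9 was thus counted in every library of this somatic tissue.

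Prdm11 had 40 and 58 reads in CKO and 32 and 46 in WT, and Zfp408 had 214 and 385 in CKO and 273 and 228 in WT. Their log2 changes were 0.19 and 0.07, with overlapping groups for both. The germ cell factor Prdm14 had 1 and 3 reads in CKO and 0 in both WT libraries. Prdm13, a factor of the spinal cord, had 1 read in all, and Prdm12, a factor of pain-sensing neurons, had 0.

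The enzymes and co-repressors that BLIMP1 recruits were read in all libraries, and 0 of 9 passed the adjusted threshold or an unadjusted p under 0.05. Of the 9, 5 had a positive and 4 a negative change, with a median of 0.03. The smallest p-values belonged to the Groucho-type co-repressors Tle3, Tle1 and Tle2. Tle3 had 1519 and 1843 reads in CKO and 1225 and 1032 in WT, a log2 change of 0.44 (SE 0.23, adjusted p = 0.475 in limma). The changes of Tle1 and Tle2 were 0.45 and 0.60.

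Transcription factors of the circuits around Prdm1 in lymphoid and myeloid cells gave 2 positive and 5 negative changes among 7 tested of 8, with a median of -0.09, and none passed the adjusted threshold. Mitf, a factor of pigment cells, osteoclasts and macrophages, was read 287 and 457 times in CKO and 788 and 2013 times in WT. Its log2 change was -1.93 (SE 0.52), lower at an unadjusted p under 0.05 in limma, as were 7.26% of all genes tested. Its order over the libraries was that of Prdm1 and of the first principal component. Bach1, a repressor of heme and antioxidant genes, had a log2 change of -0.66, and Irf4, which acts with BLIMP1 in plasma cells, of -0.39 (adjusted p = 0.545 and 0.739 in limma). Pax5, the factor of B cell identity, had 3 and 1 reads in CKO and 0 in both WT libraries and was not tested.

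Among 10 partners and antagonists of PRDM16, 7 had a positive and 3 a negative change, with a median of 0.13, and none passed the adjusted threshold. Ebf2, a selector factor of brown and beige precursors, was read 1547 and 931 times in CKO and 535 and 150 times in WT, a log2 change of 1.94 (SE 0.68). Cebpb, with which PRDM16 pairs in brown fat and which macrophages also carry, was read 4337 and 4805 times in CKO and 6326 and 11149 times in WT, a log2 change of -1.01 (SE 0.37). Both were past an unadjusted p under 0.05 in limma, 1 of the 10 higher (3.35% of all genes tested) and 1 lower (7.26%). Ppargc1a, a coactivator of mitochondrial genes, had a log2 change of 1.33 (adjusted p = 0.471 in limma).

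The thermogenic and beige fat genes were mixed in sign. Of 12 genes, 7 were tested, 2 with a positive and 5 with a negative change, with a median of -0.86, and none passed the adjusted threshold. Otop1, a proton channel found in brown fat, was read 39 and 15 times in CKO and 183 and 90 times in WT. Its log2 change was -2.48 (SE 0.70), lower at an unadjusted p under 0.05 in limma, as were 7.26% of all genes tested. Cox7a1, a mitochondrial subunit of brown fat and muscle, had 46 and 77 reads in CKO and 130 and 101 in WT (-1.06, SE 0.44), while Ppara, a factor of fat burning, had 172 and 153 in CKO and 104 and 34 in WT (1.30, SE 0.63). Ucp1, the uncoupling protein that defines heat-producing fat, had 0 and 2 reads in CKO and 0 and 5 in WT, and with Dio2, Elovl3, Tbx1 and Zic1 was below the filter.

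Likeness of pattern was measured as the root mean square difference of log2 levels over the 4 libraries, after each gene's own mean was taken off, among 11919 genes. The 5 genes most like Prdm1 were Abcg1 (0.034), Mical2 (0.037), Cytip (0.045), Pla2g4a (0.060) and Nlrp10 (0.090), against a median of 1.08 over all candidates. Abcg1, a cholesterol exporter of macrophages among other cells, was read 805 and 2169 times in CKO and 2842 and 6273 times in WT. The 5 most like Prdm16 were Rflnb (0.024), Chrnb1 (0.029), Grasp (0.039), N4bp3 (0.041) and Tead4 (0.045), against a median of 0.853. Rflnb, which encodes an actin regulator, was read 6045 and 12386 times in CKO and 6666 and 2277 times in WT. With 4 libraries such nearness is a description and carries no test.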

How the data were processed

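Bulk RNA-seq of 2 CKO and 2 WT libraries was read with FastQC and aligned with STAR 2.7.5c to GRCm38.p6, per the submitters' processing notes. Which tool counted the reads, on which annotation and with which strand option, is not stated in the labels used here. The authors deposited log2 values per gene, from which whole reads within 0.01 were recovered for every gene, so the values are log2(reads + 1) without scaling. Identifiers matched GENCODE M21 for 55094 of 55487 rows, which gave positions and exon lengths.

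Reads were scaled by median-of-ratios size factors over 19847 genes and taken to log2 with a pseudocount of 1, which understates folds of low genes. The 16871 genes with a mean log2 of at least 3 were fitted with limma 3.58.1 in R 4.3.3 (eBayes with a trend, two-sided, Benjamini-Hochberg), with 2 residual and 2.92 prior degrees of freedom. An exact permutation test of 2 against 2 cannot go below 0.333. In a test on simulated data of CKO against WT, 70% of 2-fold changes were recovered over 17277 genes with an SD of 0.2, and 0% of 2-fold or 8-fold changes over 17223 genes with the measured spread.

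The members and gene lists were chosen with earlier results of these data known. Named genes are the PRDM genes (1 further family gene is not reported here), the 3 of smallest p from each other list (with any past the adjusted threshold), the 5 most like Prdm1 and Prdm16 (mean log2 of at least 5, no unnamed models or pseudogenes), Adgre1 and Adipoq. Other markers, Ptprc, Pax5 and the thermogenic genes below the filter were named after their values were seen. Filters, scaling, pseudocount, variance models and left-out libraries were varied.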

Additional observations from a re-analysis of the deposited data

How the results depend on the processing

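No member passed the adjusted threshold in any of 14 alternative settings (filters, scaling, pseudocount, variance models including voom, and each library left out). No paired analysis was possible because replicates were numbered in accession order, which joins no library to another. The log2 change of Prdm1 lay between -1.79 and -1.65 where all libraries were kept and between -2.38 and -1.20 with 1 left out (-1.20 without CKO replicate 1, -1.22 without WT replicate 2), with adjusted p-values of 0.0617 to 1.00 over the 14. That of Prdm16 lay between 1.02 and 1.18, and between 0.25 (without WT replicate 2) and 1.82 (without WT replicate 1) with 1 left out; it was 0.62 without CKO replicate 2. Prdm4 reversed to -0.045 without WT replicate 1, and the cause was not tested. Prdm2, Prdm10 and Prdm15 kept their sign in all 14, but Prdm2 was 0.017 without WT replicate 1 and 0.40 without WT replicate 2, and Prdm15 was 0.14 without CKO replicate 2. Without scaling they were 0.35, -0.14 and 0.38. Past the threshold over all genes were 0 to 1717 with 1 library left out, 1717 of them without WT replicate 1, where the lone WT replicate 2 is assumed to vary like the CKO group. Among the other list genes the range was 0 to 5, again without WT replicate 1: Mecom and Ebf2 (2.88 and 2.84), Zfp423 (1.41), Mitf (-2.62) and Cebpb (-1.44). Passing was common among the 16946 genes tested in that setting, and no share over the list genes was computed. The 5 names are thus no result about the lists. Prdm1 relative to macrophage markers moved from 0.47 to 1.04 with Adgre1, Cd68 and Csf1r alone, and ranged from 0.21 to 0.73 with 1 library left out. The median change of all genes was 0.147 without scaling, 0.099 by total reads and 0.064 by quantiles. At 0 to 3 reads, Prdm6 and Prdm8 were too shallow for any comparison.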

Other observations

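The antisense RNA Prdm16os, whose gene lies upstream of Prdm16 at chr4:154637576-154644724 on the plus strand and overlaps none of its exons, had 52 reads in WT replicate 1, against 0 and 1 in the CKO libraries and 3 in WT replicate 2. Prdm16 itself, at 498 reads, was not the highest in that library. Mecomos, antisense to Mecom and sharing 81 exonic bases with it, had 16 and 49 reads in CKO and 13 and 9 in WT, a log2 change of 1.17. Its library order was that of Mecom. Without a stated strand setting, reads from the shared bases cannot be told apart. Both RNAs were picked after their values were seen.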
